A study of Homo sapiens with 12 samples.

Results

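The integrated stress response gene ATF4, 15 genes that it is known to induce or that work beside it, and 17 cytosolic aminoacyl-tRNA synthetase genes were followed in a leukemia line given an inhibitor of LSD1. These 33 genes were the rows of the count tables whose Ensembl identifiers map to the listed symbols, out of 63677 genes in the tables. Each symbol matched 1 identifier. All 33 passed the filter on low counts that left 12864 genes for testing. STC2 passed only through the group where it was highest, and CHAC1 only through the insR groups, where it was higher than in WT cells.

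RNA was measured with 3′ end sequencing in 12 libraries of SET-2 cells, an established human line labelled acute myeloid leukemia. LSD1, encoded by KDM1A, removes methyl groups from histone H3 and acts in repressor complexes, and GSK-LSD1 is an inhibitor that binds its cofactor irreversibly. The WT DMSO group had wild-type LSD1 and received 0.1% (v/v) DMSO for 48 h, and the WT GSK-LSD1 group received 250 nM GSK-LSD1 for 48 h. The insR DMSO and insR GSK-LSD1 groups received the same 2 treatments in cells whose LSD1 carries an extra arginine (Leu659_Asn660insArg), which the labels describe as drug-resistant. Each of the 4 groups had 3 libraries. The labels do not say whether the insR cells are 1 clone. The labels do not give the origin of the replicates, so the p-values reflect only how these libraries spread, which can be technical variation.

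Reads in genes ranged from 4837096 to 10141155 per library. In WT DMSO KDM1A averaged 265 ± 26.5 CPM (SD, n = 3), followed by 217 ± 3.01 in WT GSK-LSD1, 109 ± 2.18 in insR cells without the drug and 106 ± 4.56 with it. Gene counts do not show the inserted arginine, so these levels do not check the genotype labels. CPM, the usual unit for reads of a gene relative to all reads in genes, was computed with library sizes scaled by TMM. Reads that aligned uniquely but outside genes came to 18.4% to 19.5% in the treated WT libraries and to 13.7% to 17.1% elsewhere. Their share of reads in mitochondrial genes was 3.97% to 4.54%, against 2.7% to 3.58%.

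ATF4 is a transcription factor whose messenger is translated better when kinases that sense amino acid shortage, protein misfolding, heme shortage or viral RNA phosphorylate the initiation factor eIF2alpha. Its protein pairs with C/EBP factors and binds short composite sites near genes for amino acid synthesis and import, for charging tRNAs and for stress signalling. Aminoacyl-tRNA synthetases join each amino acid to its tRNA, and several cytosolic ones sit together in a multi-synthetase complex. RNA counts measure neither ATF4 protein nor its translation.

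The letters of that composite site were looked for in promoters, because the site is what ties many of these genes to ATF4. The search used RefSeq promoters of the build GRCh38.p14, from 250 bases before to 50 bases after each gene's annotated start, and both strands. The motif TGATGNAA was present in 9 of the 27 members in that table (33.3%) and in 4.46% of all 27305 genes there, or 3.62% of the 35116 promoters. These 9 were AARS1, CARS1, GARS1, IARS1, MARS1, NARS1, TARS1, ASNS and CHAC1. It was present in 7 of 14 cytosolic synthetase promoters and in 1 of 14 promoters of mitochondrial synthetases. The narrower form TGATGCAA, whose matches are among those of TGATGNAA, was present in 7 members and 1.08% of all genes in the table. The cyclic AMP response element TGACGTCA, a palindrome that shares no match with either, was present in 0 members and 2.25% of all genes in the table. LARS1, PSPH, PYCR1, SHMT2, VARS1 and YARS1 were not in the table. Since the members were listed as ATF4 targets from earlier knowledge, these shares are a description of the list.

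Stretches from 6 of the 9 promoters are shown to let the match be compared between synthetases, asparagine synthetase and a stress gene. Each reads 5′ to 3′ on the gene's strand, with the match in capitals. A match in the opposite orientation reads TTNCATCA, and match starts are given relative to the annotated start of the gene.
AARS1 (chr16:70289656-70289723, minus strand, match at -187): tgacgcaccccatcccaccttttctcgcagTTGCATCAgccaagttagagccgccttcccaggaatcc
CHAC1 (chr15:40953232-40953299, plus strand, match at -209): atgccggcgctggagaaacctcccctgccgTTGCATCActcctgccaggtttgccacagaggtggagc
ASNS (chr7:97872439-97872506, minus strand, match at -68): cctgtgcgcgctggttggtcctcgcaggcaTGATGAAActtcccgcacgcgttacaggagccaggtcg
GARS1 (chr7:30594834-30594863, plus strand, match at -33): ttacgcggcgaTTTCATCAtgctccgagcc
MARS1 (chr12:57488053-57488082, plus strand, match at -4): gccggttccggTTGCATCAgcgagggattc
TARS1 (chr5:33440956-33440985, plus strand, match at 2): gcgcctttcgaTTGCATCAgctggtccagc

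In WT cells, 16 of the 17 cytosolic synthetases fell with GSK-LSD1 and QARS1 rose. Outside the synthetases the members did not move as a block. MTHFD2, PYCR1, CBS and ASNS fell, PHGDH and STC2 rose, and ATF4 and the 9 remaining members were not called. The STC2 call is limited, because STC2 passed the filter on low counts only through the group where it was high. Genes were called at an adjusted p below 0.05 by edgeR's quasi-likelihood test, adjusted over all 12864 genes tested. Counted over all 33 members, 20 were called lower and 3 higher, while over all genes tested 22.5% were called lower and 22.7% higher. Of the 16 members other than synthetases, 4 were called lower, a share close to that over all genes. Only 2 of these 16 were called higher, a share below that over all genes. Thus 16 of the 20 decreases were synthetases. The median log2 fold change of the 17 synthetases was -0.47, beside 0.01 over all genes tested.

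**Figure D1:**
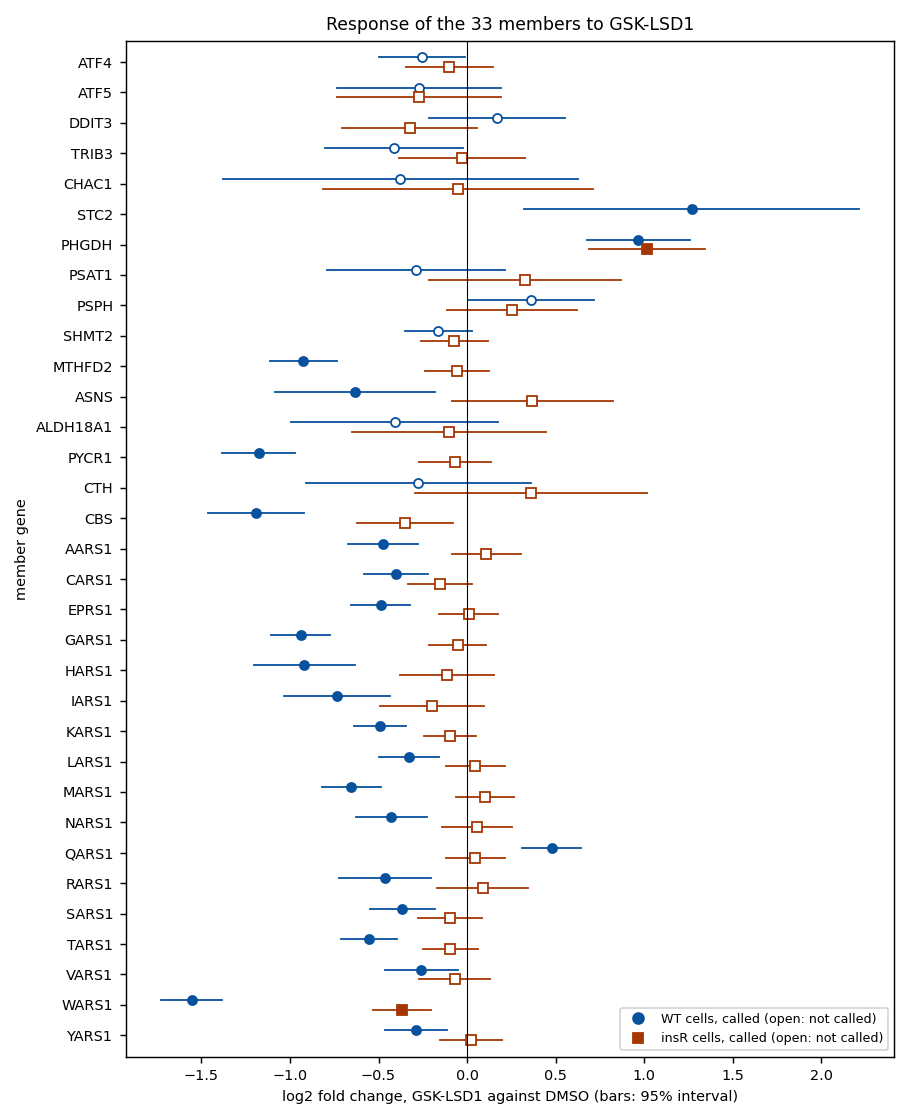
Log2 fold change of each of the 33 members (rows) with GSK-LSD1 against DMSO in WT cells (circles) and insR cells (squares), with 95% intervals, where filled symbols passed edgeR's test. In WT cells 16 of 17 synthetases lie left of 0 with filled circles, whereas in insR cells the filled squares are PHGDH and WARS1, and STC2 has no square because its insR libraries held 0 counts.

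ATF4 itself was at 240.2, 230.4 and 239.7 CPM in the 3 WT DMSO libraries and at 220.6, 198.9 and 176.8 after GSK-LSD1. Each treated library lay below each DMSO library, with a log2 fold change of -0.26 (SE 0.12, adjusted p = 0.0838), which did not pass the threshold. It was called under 6 of 20 alternative analyses, with adjusted p from 0.0107 to 0.293 over all of them. The calls came with no filter beyond 1 count (0.0107), with a fit on only the groups compared (0.0333) and without replicate 1 (0.0358) of WT GSK-LSD1, replicate 1 (0.0297) or 3 (0.0369) of insR DMSO, or replicate 3 (0.0452) of insR GSK-LSD1. ATF5, a related factor with similar translational control, ranged from 57.88 to 85.15 CPM in WT DMSO and from 45.41 to 63.17 after the drug, and those ranges overlapped. The ATF5 gene overlaps NUP62 on the opposite strand, so its separate value is uncertain. DDIT3 encodes CHOP, a stress-induced partner of C/EBP proteins. It ranged from 11.12 to 15.36 CPM in WT DMSO and from 10.59 to 18.74 after the drug, and its 95% interval for the log2 fold change ran from -0.21 to 0.55. DDIT3 and MARS1 overlap on opposite strands, and how the counting treated strand is not given, so the separate values of DDIT3 and MARS1 are uncertain.

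TRIB3, a pseudokinase that ATF4 induces and that dampens AKT and CHOP signalling, was at 12.99, 17.69 and 23.22 CPM in WT DMSO and at 10.59, 12.67 and 16.29 with the drug. The log2 fold change of -0.41 (SE 0.19, adjusted p = 0.0798) did not pass. It passed without replicate 1 (adjusted p = 0.0133) of WT DMSO or replicate 3 (0.0243) of WT GSK-LSD1, and ran from 0.0133 to 0.421 across the alternatives. CHAC1, an enzyme that breaks down glutathione, was at 1.053, 1.608 and 2.322 CPM in WT DMSO and at 1.513, 1.92 and 0.7128 with the drug. These CHAC1 values rest on 31 and 25 reads, and the 95% interval of the log2 fold change, -1.38 to 0.62, holds both a loss and a gain. STC2, a secreted glycoprotein induced by ER stress, went from 1.229, 1.876 and 0.5359 CPM to 2.836, 4.032 and 2.546, or from 24 to 61 reads. Among the 4 groups, only WT GSK-LSD1 had enough STC2 reads in all 3 libraries to pass the filter on low counts. STC2 was thus tested only through the group where it was high, which limits its call. STC2 rose with a log2 fold change of 1.27 (SE 0.45, adjusted p = 0.0275). That call was lost with DESeq2 (adjusted p = 0.0742), with no filter beyond 1 count (0.0621), and without replicate 1 (0.0769) or 3 (0.121) of WT DMSO or replicate 2 (0.105) of WT GSK-LSD1, and ran from 0.0122 to 0.121 across the alternatives.

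Within the serine and one-carbon genes the entry step and the mitochondrial folate step moved in opposite directions. PHGDH, which commits a glycolytic intermediate to serine synthesis, was at 19.66, 18.76 and 19.11 CPM in WT DMSO and at 39.52, 37.82 and 35.43 after the drug. It rose with a log2 fold change of 0.97 (SE 0.14, adjusted p = 5.09e-06), and the lowest treated library lay well above the highest DMSO library. MTHFD2, a folate enzyme of mitochondria that is abundant in dividing cells, went from 170.3, 151.8 and 145 CPM to 69.96, 86.78 and 88.48. It fell with a log2 fold change of -0.92 (SE 0.09, adjusted p = 1.64e-08).

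The other members of the serine and one-carbon genes were not called in WT cells. PSAT1, the aminotransferase after PHGDH, was at 9.481, 11.12 and 10.9 CPM and then at 5.861, 6.528 and 12.22. Replicate 3 of WT GSK-LSD1 stood above its 2 partners for PSAT1, and without it the adjusted p was 0.0213 in place of 0.349 (range 0.0213 to 0.76). PSPH, which releases serine in the last step, averaged 11.2 ± 0.62 and 14.1 ± 2.41 CPM for a log2 fold change of 0.36 (adjusted p = 0.0931). SHMT2, which splits serine into glycine and a one-carbon unit in mitochondria, averaged 114 ± 7.69 and 102 ± 7.91 CPM (adjusted p = 0.158).

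Of the proline genes, PYCR1 fell. PYCR1 reduces pyrroline carboxylate to proline in mitochondria, and went from 123.9, 127.4 and 157.5 CPM to 65.04, 60.48 and 55.8. Its log2 fold change was -1.18 (SE 0.10, adjusted p = 1.08e-09), so treated cells held 44.2% of the DMSO level. ALDH18A1, which makes the precursor of pyrroline carboxylate, was at 57.76, 50.78 and 37.33 CPM and then at 20.23, 47.23 and 41.54. The first treated library of ALDH18A1 stood far below the other ones, and the log2 fold change of -0.41 had a 95% interval of -0.99 to 0.17.

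CBS, the first enzyme of the route from homocysteine to cysteine, fell to 43.8% of its DMSO level. Its 3 WT DMSO libraries were at 47.58, 47.29 and 39.83 CPM and its treated libraries at 20.99, 19.58 and 18.74 (log2 fold change -1.19, SE 0.13, adjusted p = 8.19e-08). CTH, which completes that route, was at 3.511, 5.627 and 4.108 CPM and then at 4.349, 2.496 and 4.073, with overlapping libraries and 85 and 76 reads. ASNS, which makes asparagine from aspartate and glutamine, went from 9.481, 11.39 and 13.22 CPM to 7.563, 7.872 and 6.72. It fell by 0.63 on the log2 scale (SE 0.22, adjusted p = 0.0211). The ASNS call was lost without replicate 2 (adjusted p = 0.0502) or 3 (0.0829) of WT DMSO or replicate 3 (0.0912) of WT GSK-LSD1, and ran from 0.0114 to 0.0912 across the alternatives.

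**Figure D2:**
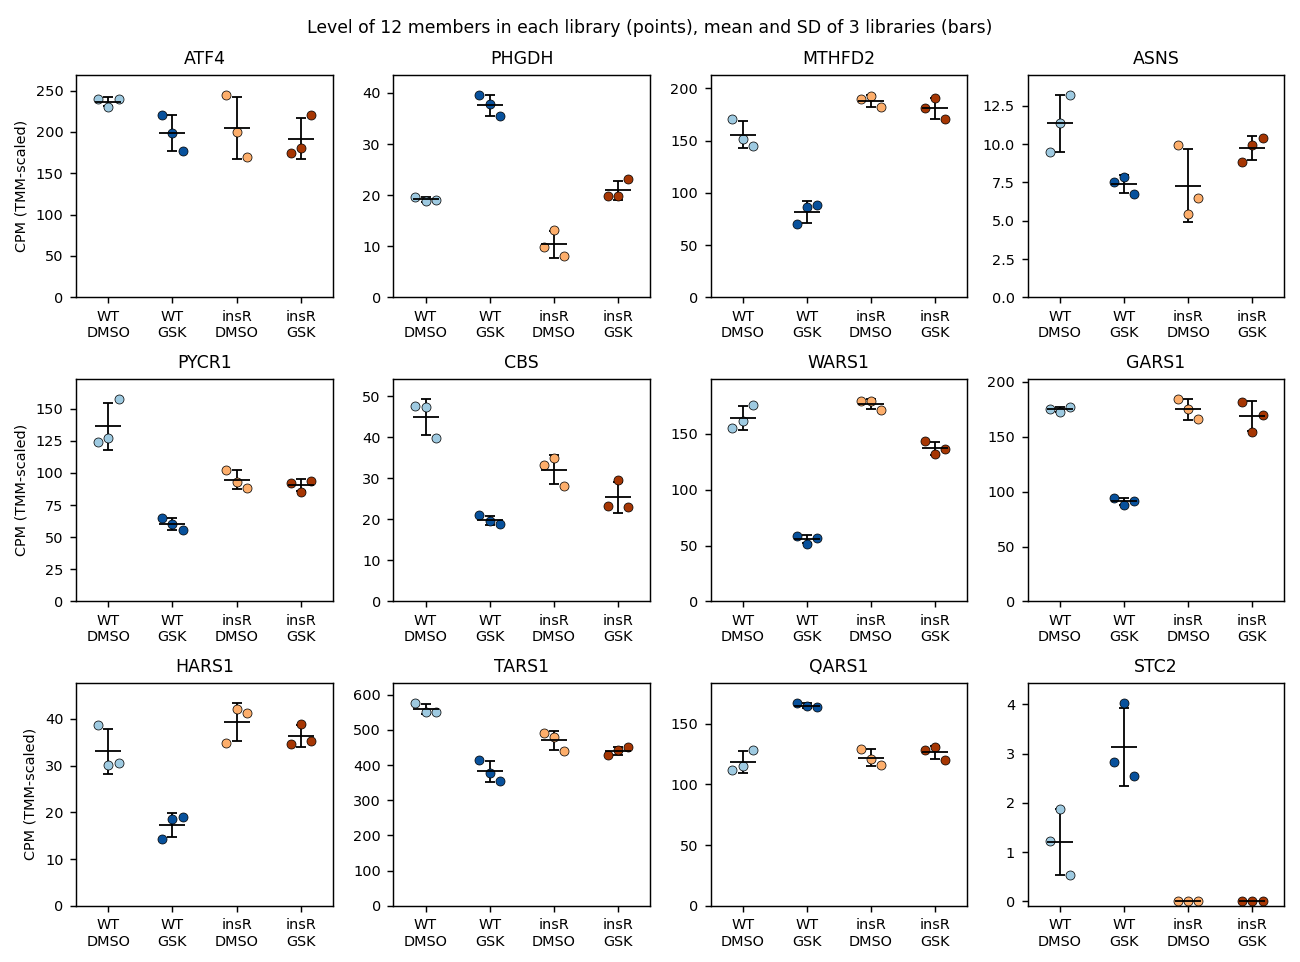
CPM of 12 members (panels) in each of the 12 libraries (points, 3 per group), with the mean and SD of each group as bars, on axes that start at 0. WARS1, GARS1, HARS1, PYCR1, CBS and MTHFD2 are lowest in the WT GSK-LSD1 libraries, QARS1 is highest there, PHGDH is higher with the drug in both kinds of cell, and STC2 is at 0 in all insR libraries.

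The synthetases gave the broadest change among the members. Their summed level was 3515 to 3873 CPM in the WT DMSO libraries and 2502 to 2812 after GSK-LSD1, with no overlap. Log2 fold changes of the 16 that fell ran from -1.56 to -0.26, with a median of -0.48.

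WARS1, the tryptophanyl synthetase and an interferon-inducible gene, fell furthest. It was at 155, 161.8 and 175.8 CPM in WT DMSO and at 58.8, 51.84 and 56.72 with the drug. The log2 fold change of -1.56 (SE 0.08, adjusted p = 2.83e-13) left 34.0% of the DMSO level. GARS1, which charges glycine tRNAs in both cytosol and mitochondria, went from 174.9, 172.4 and 177.4 CPM to 93.97, 87.74 and 91.54 (log2 fold change -0.94, SE 0.08). HARS1, the histidyl enzyme, went from 38.62, 30.14 and 30.54 CPM to 14.37, 18.62 and 18.94 (log2 fold change -0.92, SE 0.14). WARS1, GARS1 and HARS1 each had a treated maximum below the DMSO minimum, and GARS1 and HARS1 came to 52.1% and 52.9% of the DMSO level. HARS1 overlaps HARS2 and WDR55 in a later annotation, so its separate value is uncertain.

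MARS1, the methionyl enzyme, went from 141.7, 145.5 and 134.3 CPM to 83.38, 92.93 and 91.64, a log2 fold change of -0.65 (SE 0.08, adjusted p = 5.21e-07). TARS1, the threonyl enzyme, went from 575.9, 551.3 and 551.4 CPM to 414.1, 376.9 and 354 (log2 fold change -0.55, SE 0.08). KARS1 charges lysine tRNAs in both compartments and overlaps TERF2IP. It went from 343.2, 325.6 and 344.6 CPM to 242, 241 and 237.6 (log2 fold change -0.49, SE 0.07), and its treated libraries lay close together, far below those of DMSO.

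Of the synthetases given here as means, IARS1 (isoleucine) fell by 0.73 on the log2 scale, EPRS1 (glutamate and proline) by 0.49, AARS1 (alanine) by 0.47 and RARS1 (arginine) by 0.46. NARS1 (asparagine), CARS1 (cysteine) and SARS1 (serine) fell by 0.43, 0.40 and 0.37. LARS1 (leucine), YARS1 (tyrosine) and VARS1 (valine) had the smallest decreases, at log2 fold changes of -0.33, -0.29 and -0.26, with adjusted p = 0.00209, 0.00692 and 0.0374. The VARS1 call was lost with DESeq2 (adjusted p = 0.0563), with only the groups compared (0.0652), with a stricter count filter (0.057), with upper-quartile scaling (0.0906), and without replicate 3 (0.194) of WT DMSO or replicate 1 (0.0509) or 2 (0.125) of WT GSK-LSD1. Over all alternatives its adjusted p ranged from 0.024 to 0.194. YARS1 overlaps S100PBP on the opposite strand, so its separate value is uncertain.

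QARS1, which charges glutamine tRNAs, was the exception among the 17. It is shown in every library because of its direction, so it was chosen after its values were seen. QARS1 was at 112, 115.4 and 128.6 CPM in WT DMSO and at 167.1, 164.5 and 163.8 with the drug. It rose with a log2 fold change of 0.48 (SE 0.08, adjusted p = 3.26e-05), and its 3 treated libraries lay above the remaining 9 libraries of the study. The QARS1 call held under all 20 alternatives.

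**Figure D3:**
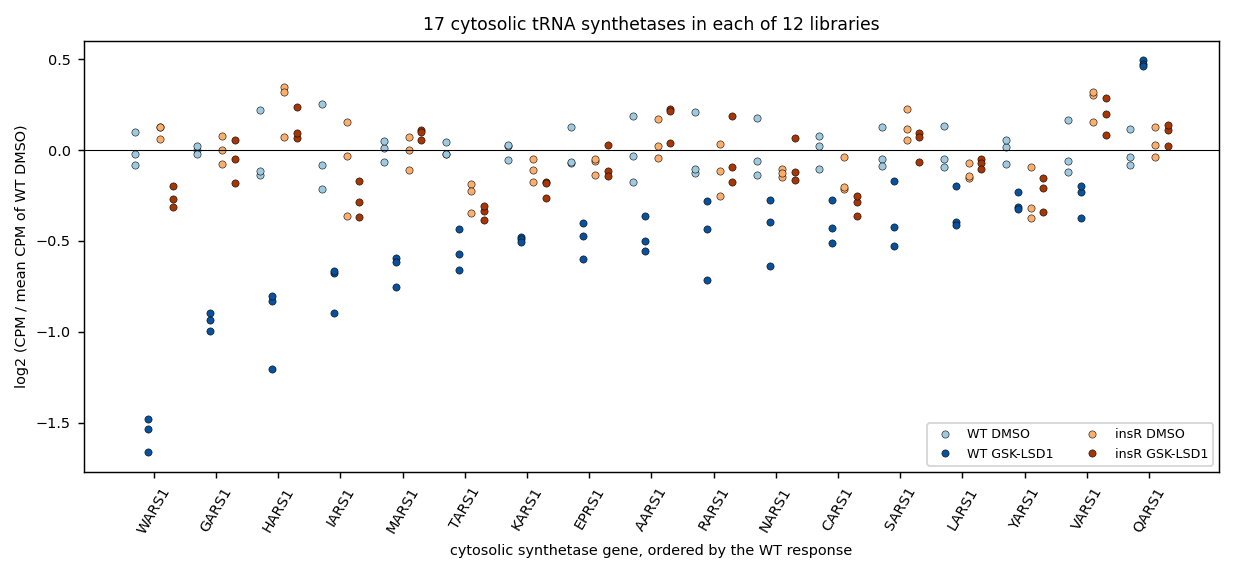
Level of each of the 17 cytosolic synthetase genes in each of the 12 libraries (points), as log2 of CPM over the mean CPM of WT DMSO, ordered by the WT response. From WARS1 at the left to VARS1, 16 genes were called lower in WT GSK-LSD1 than in WT DMSO, and QARS1 was called higher. Over all genes tested, 22.5% were called lower and 22.7% higher.

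The decreases were spread over synthetases inside and outside the multi-synthetase complex. They were also spread over promoters with and without the letters of the composite site in the bases searched. Whether ATF4 binds at any of these genes was not tested. Of the 7 members that belong to that complex (EPRS1, IARS1, KARS1, LARS1, MARS1, QARS1 and RARS1), 6 fell and QARS1 rose, with a median log2 fold change of -0.49. The 10 synthetases outside it all fell, with a median of -0.45. The 7 synthetases whose promoters are shown or named above as holding TGATGNAA had WT log2 fold changes from -0.94 to -0.40 and a median of -0.55. In the 7 synthetases of the promoter table without those letters, WT values ran from -1.56 to 0.48 with a median of -0.49.

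In insR cells given the same treatment, 16 of the 17 synthetases were not called. The 17 together had a median log2 fold change of -0.05 and a summed level of 3414 to 3635 CPM without and 3300 to 3551 CPM with the drug, which overlap. Over all 33 members PHGDH was called higher and WARS1 lower, while over all genes tested 0.241% were called higher and 0.264% lower. Log2 fold changes of the synthetases ran from -0.37 to 0.11, and their 95% intervals together spanned -0.53 to 0.34.

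PHGDH was at 9.858, 13.2 and 8.084 CPM in insR DMSO and at 19.82, 19.91 and 23.07 after GSK-LSD1. It rose with a log2 fold change of 1.02 (SE 0.16, adjusted p = 0.00145) with no overlap, and its call held under all 20 alternatives. The increase in insR cells minus that in WT cells was 0.05 on the log2 scale, with a 95% interval of -0.38 to 0.48 (adjusted p = 0.893), so a difference in either direction of that size was not detectable. WARS1 went from 179.6, 179 and 171.5 CPM to 143.4, 131.9 and 136 in insR cells. That decrease, -0.37 on the log2 scale (SE 0.08, adjusted p = 0.0299), was lost without any 1 of the 6 insR libraries. The adjusted p was then 0.143, 0.163 and 0.0609 without replicate 1, 2 and 3 of insR DMSO, and 0.079, 0.185 and 0.125 without replicate 1, 2 and 3 of insR GSK-LSD1, and ran from 0.00863 to 0.185 across the alternatives.

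The remaining members other than synthetases had values in insR cells as follows, and none of them was called. ATF4 was at 244.9, 199.9 and 170.1 CPM in insR DMSO and at 174.7, 180.3 and 219.9 with the drug, so its spread within a group exceeded the difference between them. CBS was at 33.23, 34.97 and 28.12 and then 23.36, 29.66 and 23.07 CPM, and the log2 fold change of -0.35 had an adjusted p = 0.4. ASNS was at 9.959, 5.443 and 6.503 and then 8.862, 9.956 and 10.38 CPM, a log2 fold change of 0.37 (adjusted p = 0.765). PYCR1 (102.5, 93.2 and 88.05 CPM, then 92.33, 85.04 and 94) and MTHFD2 (189.9, 192.7 and 181.7 CPM, then 181.6, 190.6 and 170.8) overlapped between treatments. STC2 had 0 counts in all 6 insR libraries, where 3 counts would be 0.296 to 0.62 CPM. DDIT3 was at 16.56, 15.51 and 16.34 CPM in insR DMSO and at 13.53, 12.45 and 12.7 with the drug, without overlap. Its log2 fold change was -0.32 (adjusted p = 0.746). Log2 fold changes were -0.27 for ATF5, -0.03 for TRIB3, -0.05 for CHAC1, -0.07 for SHMT2 and -0.10 for ALDH18A1. They were 0.325 for PSAT1, 0.25 for PSPH and 0.36 for CTH.

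The difference between the responses, tested as an interaction, separated the cells for 16 members. The response was more positive in insR than in WT cells for 15 members and more negative for QARS1, while over all genes tested 13.3% were more positive and 11.8% more negative. The 15 were 11 synthetases with MTHFD2, ASNS, PYCR1 and CBS. WARS1 had the largest interaction of the 33, 1.19 on the log2 scale (SE 0.12, adjusted p = 4.69e-08), followed by PYCR1 at 1.11 (SE 0.14, adjusted p = 2.69e-06). GARS1 differed by 0.89, MTHFD2 by 0.87, CBS by 0.84, HARS1 by 0.81 and MARS1 by 0.75. QARS1 differed by -0.43 (SE 0.11, adjusted p = 0.00669).

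For CARS1, IARS1, SARS1, VARS1 and YARS1, which fell in WT cells, the interaction did not pass, with adjusted p = 0.152, 0.0557, 0.122, 0.347 and 0.0561. The intervals of that difference were -0.01 to 0.50 for CARS1, 0.12 to 0.95 for IARS1, 0.01 to 0.53 for SARS1, -0.10 to 0.48 for VARS1 and 0.07 to 0.56 for YARS1. IARS1 passed with no filter beyond 1 count (adjusted p = 0.0413) and without replicate 3 (0.0265) of WT DMSO or replicate 2 (0.0263) of insR DMSO, and ran from 0.0263 to 0.173 across the alternatives. YARS1 passed without replicate 1 (0.0392) of WT GSK-LSD1, replicate 1 (0.0149) of insR DMSO or replicate 2 (0.0418) of insR GSK-LSD1, and ran from 0.0149 to 0.151 across the alternatives. SARS1 passed without replicate 1 of WT GSK-LSD1 (adjusted p = 0.0173, range 0.0173 to 0.285), and PSAT1 without replicate 3 of WT GSK-LSD1 (0.0253, range 0.0253 to 0.412).

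Of the interactions that passed, 13 of 16 held under every alternative. ASNS differed by 1.003 (SE 0.31, adjusted p = 0.02), and the call was lost without replicate 3 (0.0562) of WT GSK-LSD1 or replicate 2 (0.0587) of insR DMSO, and ran from 0.00308 to 0.0587 across the alternatives. LARS1 differed by 0.38 (adjusted p = 0.0192), lost without replicate 3 (0.0582) of WT DMSO or replicate 2 (0.0535) of WT GSK-LSD1, and ran from 0.00946 to 0.0582 across the alternatives. RARS1 differed by 0.55 (adjusted p = 0.0264), lost without replicate 3 (0.0517) of WT DMSO, replicate 2 (0.0512) of WT GSK-LSD1, replicate 1 (0.0575) or 2 (0.0631) of insR DMSO, or replicate 1 (0.0653) of insR GSK-LSD1, and ran from 9.54e-05 to 0.0653 across the alternatives. ATF4 differed by 0.15 (95% interval -0.19 to 0.50), ATF5 by 0.00 (-0.65 to 0.65) and DDIT3 by -0.49 (-1.03 to 0.05), and none of these passed. No interaction can be estimated for STC2.

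Without the drug, 10 of the 33 members were called between the cell lines. PHGDH, PSAT1, ASNS, PYCR1, CBS and STC2 were lower in insR cells, and MTHFD2 was higher. Of the synthetases VARS1 was higher and TARS1 and YARS1 lower, and the remaining 14 were not called. This made 2 higher and 8 lower, while over all genes tested 14.5% were called higher and 15.6% lower. The share of members called higher was thus below that over all genes, and the share called lower was above it. Both directions together, 10 of 33 members and 3877 of 12864 genes were called, which are close shares. Whether these shares differ was not tested. This comparison and the WT response share the WT DMSO libraries.

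PHGDH was lower in insR DMSO by 0.89 on the log2 scale (-0.89, SE 0.16, adjusted p = 9.9e-05), at 10.4 ± 2.6 against 19.2 ± 0.457 CPM. With GSK-LSD1, PHGDH in insR cells averaged 20.9 ± 1.85 CPM, beside the 19.2 CPM of WT cells without it. PYCR1 (94.6 ± 7.34 against 136 ± 18.5 CPM) and CBS (32.1 ± 3.56 against 44.9 ± 4.39 CPM) had log2 fold changes of -0.52 and -0.48, with adjusted p = 0.000151 and 0.00402. STC2 had 24 reads in WT DMSO and 0 in insR DMSO, at least 9.21-fold lower against a floor of 3 counts over the group. After GSK-LSD1 the bound was at least 17.5-fold lower, from 61 reads in WT cells. STC2 passed the filter on low counts only through those treated WT libraries. The calls of PHGDH, PYCR1, CBS and STC2 held under every alternative that tested them.

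Leaving out a single library removed each of the other 6 calls of this comparison. PSAT1 was at 5.386, 8.248 and 5.8 CPM in insR DMSO, a log2 fold change of -0.72 (adjusted p = 0.0329, range 0.0141 to 0.148). It was lost without replicate 2 (0.0983) or 3 (0.0692) of WT DMSO or replicate 1 (0.148) or 3 (0.0939) of insR DMSO. MTHFD2 was higher by 0.27 (adjusted p = 0.0213, range 0.00943 to 0.0864) and was lost without replicate 2 (0.0853) or 3 (0.0864) of WT DMSO or replicate 1 (0.0549) or 2 (0.0739) of insR DMSO. ASNS had -0.59 (adjusted p = 0.0393, range 0.00448 to 0.194), with overlapping libraries. The ASNS call was lost with DESeq2 (0.0523), no filter beyond 1 count (0.0528), only the groups compared (0.0517), and without replicate 2 (0.0865) or 3 (0.157) of WT DMSO or replicate 2 (0.194) or 3 (0.123) of insR DMSO.

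TARS1 was lower by 0.25 on the log2 scale (-0.25, adjusted p = 0.0136), and was lost without replicate 3 of insR DMSO (0.0773, range 0.00611 to 0.0773). YARS1 had -0.25 (adjusted p = 0.0237, range 0.00473 to 0.146) and was lost without replicate 1 (0.0564) or 3 (0.0797) of WT DMSO or replicate 2 (0.146) or 3 (0.0908) of insR DMSO. VARS1 had 0.26 with overlapping libraries (adjusted p = 0.0421, range 0.0109 to 0.212). Its call was lost under 10 alternatives, which were DESeq2 (0.0632), no filter beyond 1 count (0.0713), only the groups compared (0.0638), without replicate 1 (0.144) or 2 (0.212) of WT DMSO, without replicate 1 (0.116) or 3 (0.118) of insR DMSO, and without replicate 1, 2 or 3 of insR GSK-LSD1 (0.0503, 0.0516 and 0.0513).

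**Figure D4:**
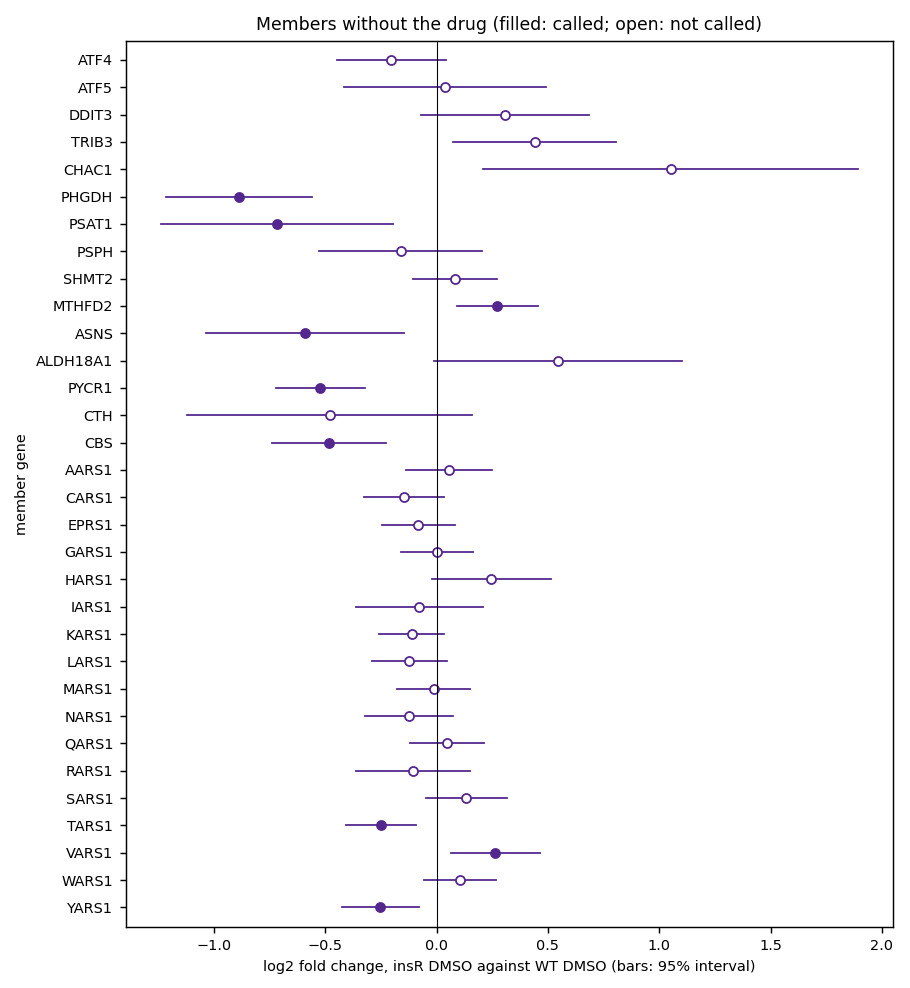
Log2 fold change of 32 members (rows) between insR and WT cells in DMSO, with 95% intervals, where filled points passed edgeR's test. PHGDH, PSAT1, ASNS, PYCR1 and CBS lie left of 0 and MTHFD2 right of it, most synthetases lie near 0, and STC2 is left out because its insR libraries held 0 counts.

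CHAC1 was higher in insR DMSO by 1.05 on the log2 scale, at 4.065, 3.959 and 2.109 CPM, but did not pass (adjusted p = 0.0536). It passed with only the groups compared (0.0451) and without replicate 3 (0.0369) of WT DMSO, replicate 3 (0.0447) of WT GSK-LSD1 or replicate 3 (0.0274) of insR DMSO, and ran from 0.0274 to 0.195 across the alternatives. With the WT groups alone CHAC1 did not pass the filter on low counts. It was thus tested only through the insR groups, where it was higher, which limits these values. TRIB3 was at 25, 20.95 and 27.07 CPM in insR DMSO, for a log2 fold change of 0.44 (adjusted p = 0.0633), and its adjusted p ran from 0.00743 to 0.325 across the alternatives. It passed with limma-voom (0.0493), with no filter beyond 1 count (0.0345) and without replicate 3 (0.00743) of WT DMSO, replicate 1 (0.0478) of WT GSK-LSD1 or replicate 2 (0.049) of insR DMSO. ALDH18A1 was at 61.89, 77.2 and 74.87 CPM in insR DMSO, above each WT DMSO library, for a log2 fold change of 0.54 (adjusted p = 0.136). Limma-voom (0.0341), only the groups compared (0.00953) and the fit without replicate 1 (0.0015) of WT GSK-LSD1 called ALDH18A1, and its adjusted p ran from 0.0015 to 0.333 across the alternatives. ATF4 had a log2 fold change of -0.20 (adjusted p = 0.209), and -0.35 without replicate 1 of insR DMSO (adjusted p = 0.0166, range 0.0166 to 0.624).

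Genes around the members in the same pathway were read from lists that name no member. Over all genes tested, 22.5% fell and 22.7% rose in WT cells, and 13.3% had a more positive response in insR cells. Of 6 further cytosolic synthetase genes and scaffolds, all 6 fell in WT cells and 4 had a more positive response in insR cells. FARSB and FARSA, the subunits of the phenylalanyl enzyme, had WT log2 fold changes of -0.75 and -0.57. EEF1E1, a scaffold of the multi-synthetase complex, went from 86.6 ± 12 to 39.4 ± 7.4 CPM in WT cells, and it was at 39.8 ± 4.3 CPM in insR cells without the drug. Of 17 mitochondrial synthetases 7 fell and 0 rose, with a median of -0.31, and 2 had a more positive response in insR cells, which is no larger a share than over all genes. Among those that fell were LARS2 at -0.52, TARS2 at -0.45 and CARS2 at -0.33. The TARS2 call (adjusted p = 0.0117, from 0.00052 to 0.13 across the alternatives) was lost without replicate 3 of WT GSK-LSD1 (0.13). Whether the cytosolic and mitochondrial lists differ was not tested.

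Of 18 eIF2alpha kinases and regulators of eIF2, 8 fell in WT cells and DELE1 rose. DELE1, which relays mitochondrial stress to an eIF2alpha kinase, is named because it was the single riser, and so after its value was seen. It had a log2 fold change of 0.38 (SE 0.15, adjusted p = 0.0381, from 0.0208 to 0.12 across the alternatives). The DELE1 call was lost with DESeq2 (0.0617), with no filter beyond 1 count (0.115), without replicate 1 (0.105), 2 (0.11) or 3 (0.0526) of WT DMSO, and without replicate 1 (0.12) or 2 (0.105) of WT GSK-LSD1. EIF2B3, a subunit of the exchange factor of eIF2, had a log2 fold change of -0.99, and EIF2S1, which encodes eIF2alpha itself, and EIF2S2 had -0.81 and -0.65. Of 24 other ATF4 targets tested, 10 fell and 8 rose. The amino acid importer SLC1A5 fell by 0.65 on the log2 scale, whereas ATF3, a stress-induced transcription factor, rose from 1.41 ± 0.29 to 15.2 ± 1.8 CPM. NDRG1, a gene also induced by hypoxia, rose by 0.94 in WT cells and fell by 0.70 in insR cells, with an interaction of -1.64 (SE 0.17). Its insR call (adjusted p = 0.00595, from 0.00163 to 0.0506 across the alternatives) was lost without replicate 3 of insR GSK-LSD1 (0.0506).

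Of 16 other serine, glycine and folate genes tested, 9 fell, 0 rose, and the same 9 had a more positive response in insR cells. MTHFD1L and MTHFD1, folate enzymes of mitochondria and cytosol, had WT log2 fold changes of -1.10 and -0.60, and the serine carrier SFXN1 had -0.78. Of 11 other proline, glutamate and asparagine genes tested, 5 fell and 0 rose. GLUL, glutamine synthetase, had a WT log2 fold change of -1.15, and ALDH4A1, which degrades proline's product, had -0.58. Of 16 ER chaperone and XBP1 or ATF6 genes, which belong to other arms of the unfolded protein response, 7 fell and 2 rose. HSP90B1, PDIA4 and SDF2L1 had log2 fold changes of -0.57, -0.56 and -0.76. The 2 that rose were XBP1 and ATF6, named because they were the risers, and so after their values were seen.

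**Figure D5:**
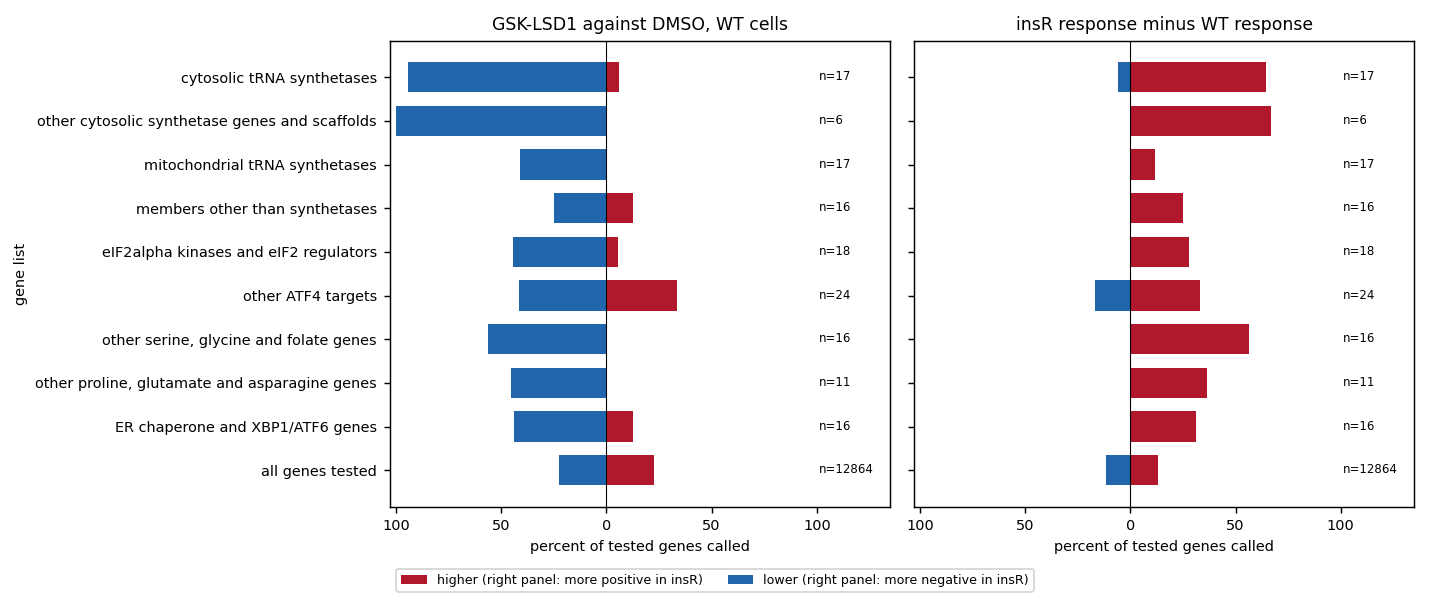
Percent of the tested genes of each list (rows) called higher (red) or lower (blue) with GSK-LSD1 in WT cells (left) and called for a more positive or more negative response in insR cells (right), with the number tested. The bars of the cytosolic synthetases, 16 of 17 lower, reach furthest beside those of the 6 related genes, against 22.5% lower over all genes tested, and other ATF4 targets have bars on both sides.

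Marker genes moved with these changes, and their part in the results was not tested. In bulk RNA, fewer cells of a type and less RNA per cell cannot be told apart. For all genes tested, 22.5% were called lower and 22.7% higher in WT cells. Of 12 megakaryocyte and erythroid markers tested, 10 fell and 1, ITGA2B, rose in WT cells. ITGA2B is named because it was the riser, and so after its value was seen. The summed level of the 13 listed went from 3783 to 3924 CPM in DMSO to 2144 to 2272 with the drug. In insR cells that sum was 6407 to 7225 CPM in DMSO and 5320 to 5928 with the drug, and PF4 was at 0 in every group. The 7 monocyte and granulocyte markers summed to 94.8 to 119 CPM in WT DMSO and 275 to 304 after GSK-LSD1, with 4 of 4 tested higher, and to 109 to 122 and 142 to 148 in insR cells. ELANE was at 0 in both WT groups, and CSF1R in both DMSO groups. The 4 immature myeloid markers summed to 738 to 778 CPM in WT DMSO and 1062 to 1081 after the drug, with CD33 and CD34 higher and KIT lower. The 6 lymphoid markers summed to 11.6 to 12.5 CPM in WT DMSO and 16.8 to 21.6 after the drug, with MS4A1 at 0 in every group. The 6 epithelial and stromal markers summed to 10.7 to 11.4 and 15.2 to 18.3 CPM, with KRT19 and PECAM1 at 0 in every group.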

How the data were processed

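Per the labels' protocols, libraries came from polyadenylated RNA by QuantSeq 3′ chemistry, which reads the ends of transcripts. The submitters' processing notes name bcl2fastq 2.2, STAR 2.6.0c, HTSeq 0.9.1, DESeq2 and hg19. Which annotation and strand setting were used is not given in the sources used here, and genes that overlap are therefore uncertain. Counts were deposited by the authors as whole reads for each gene, not normalized, and their normalized table was not used here. Entries that name no gene stayed out of library sizes: reads outside genes were 13.7% to 19.5% and ambiguous reads 1.68% to 1.86% of uniquely aligned reads. Of 63677 genes, 52181 matched a symbol by identifier and 27370 had a read. Replicates differed by more than sampling noise.

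Tests were edgeR's quasi-likelihood F tests (edgeR 4.0.16 in R 4.3.3, limma 3.58.1), fitted robustly with TMM, filterByExpr, all 12 libraries and group means. P-values were adjusted by Benjamini-Hochberg over 12864 genes and called below 0.05, and standard errors come from the F statistic. The 4 comparisons were the drug in WT cells, the drug in insR cells, the difference between these, and insR against WT in DMSO. The alternatives used upper-quartile scaling, DESeq2 size factors, no filter beyond 1 count, 5 CPM in 3 libraries, DESeq2 1.42.0, limma-voom, only the groups compared, a replicate block, and each library left out. A count of 0 allows up to 3 counts, 0.296 to 0.62 CPM per library, and floors cover counting error only.

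The members, lists and tests were chosen with earlier results of these data known. All members are given, with every library for ATF4, for up to 3 members per role (6 synthetases) of lowest p, and for insR calls. Other lists name up to 3 called members of lowest p in WT cells at a mean of at least 10 CPM. DELE1, XBP1, ATF6, ITGA2B, QARS1 in every library and counts of 5 or fewer were added after their values were seen. Promoter sequences are RefSeq's. Summaries used pandas 2.3.3 and numpy 2.4.6 in Python 3.11.15, and plots matplotlib 3.10.9.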

Additional observations from a re-analysis of the deposited data

Results flagged for a closer look

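The responses of insR and WT cells to GSK-LSD1 differed by the interaction test for 16 of the 33 members. Over all genes tested, 13.3% were more positive and 11.8% more negative in insR cells. Values below are given as the insR response minus the WT response on the log2 scale. Among the synthetases WARS1 differed by 1.19, GARS1 by 0.89, HARS1 by 0.81, MARS1 by 0.75, AARS1 by 0.58, RARS1 by 0.55, EPRS1 by 0.50, NARS1 by 0.48, TARS1 by 0.46, KARS1 by 0.40 and LARS1 by 0.38. QARS1, at -0.43, was the single member whose response was more negative in insR cells. Among the amino acid and one-carbon enzymes PYCR1 differed by 1.11, ASNS by 1.003, MTHFD2 by 0.87 and CBS by 0.84. PHGDH, which rose in both kinds of cell, had no detectable difference. Groups of 3 libraries are too small for a test of single deviating libraries, so none was made.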

How the results depend on the processing

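Of the members called, 20 of 23 in the WT response, 1 of 2 in the insR response, 13 of 16 in the difference in response and 4 of 10 between the cells in DMSO held under every alternative, and no called value changed sign. Members called lower in WT cells numbered 18 to 21 with 1 library left out. In insR cells 65 genes were called, 118 with no filter beyond 1 count and 28 to 91 with 1 library left out: 29 and 34 without insR DMSO replicate 1 and 2, and 28, 28 and 40 without insR GSK-LSD1 replicate 1, 2 and 3. Members lower in insR cells numbered 0 to 1 with 1 library left out. In DMSO 2 members were higher in insR cells, but 1 with DESeq2, 4 with limma-voom and 0 to 4 with 1 library left out: 0 without WT DMSO replicate 2 or insR DMSO replicate 1, 1 without WT DMSO replicate 1 or any insR GSK-LSD1 library, and 4 without WT GSK-LSD1 replicate 1. The 8 members lower there numbered 4 to 8, with 5 without WT DMSO replicate 3 and 4 without insR DMSO replicate 3. With the replicate block 5818 genes were called in the WT response in place of 5816, 20 members were lower, and YARS1 (difference in response, adjusted p = 0.0399) and TRIB3 (in DMSO, 0.0406) were added. Samples with the same number were not seen to deviate together (correlations of -0.169 to 0.198 over 18 pairs, against -0.313 to 0.289 for other pairs). Whether they share an origin is not given in the labels, and these ranges cannot decide it. Depth limits STC2, CHAC1 and CTH.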
